A study of Mus musculus with 20 samples.

Results

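Myeloid growth factor receptors are the cell-surface proteins through which macrophage, granulocyte and granulocyte-macrophage colony-stimulating factors, interleukin-3 and interleukin-6 act on blood-forming cells. The 8 genes described here, Csf1r, Csf2ra, Csf2rb, Csf2rb2, Csf3r, Il3ra, Il6ra and Il6st, were taken by gene symbol from 2 tables of raw read counts and are 8 of the 55486 genes in each table. Oxaliplatin-treated mice were compared with vehicle-treated mice in bone marrow, with the kidney as the comparison tissue. In marrow after oxaliplatin, Csf1r rose 1.52-fold, only just past the 1.5-fold threshold, and the other 7 receptors were not called changed. The Csf1r call was kept in 7 of 10 fits with 1 mouse left out, and 1 treated mouse lay below every vehicle mouse. In kidney Csf1r fell 1.85-fold, while Csf2rb, Csf2rb2, Csf3r and Il6ra rose from low levels, the last pair only just past the 1.5-fold threshold.

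RNA was sequenced in 20 libraries, 5 from each combination of tissue and treatment. All mice were C57BL/6 and 10 weeks old at the start. The treated groups received oxaliplatin, a platinum drug that cross-links DNA, by intraperitoneal injection at 10 mg/kg in 5% dextrose over 8 weeks, and the control groups received 5% dextrose alone. Marrow was spun out of the cut long bones of the hind leg 6 days after dosing ended and holds every cell of the cavity, whereas how the kidneys were collected is not given in the sources used here. No allele was altered in any group. Total counts ranged from 30660153 to 41140527 in marrow and from 24393007 to 30925430 in kidney. The tissues matched their labels, because 5 kidney markers together reached 13190 to 17680 CPM in kidney and at most 0.951 CPM in marrow. CPM are read counts divided by library size, scaled by TMM within each tissue. The methods name male and female mice, but 4 Y-linked genes summed to 77.5 to 173 CPM in all 20 libraries and Xist was at most 2.88 CPM.

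Csf1r is a receptor tyrosine kinase that binds CSF1 and IL-34 and maintains monocytes, macrophages and osteoclasts. The other members are cytokine receptors without an enzyme of their own, which pair up on ligand binding and signal through JAK kinases and STAT factors. Csf2ra and Il3ra encode the chains that bind GM-CSF and interleukin-3, each of which joins a common beta chain, and mice carry a pair of such chains, the shared Csf2rb and the interleukin-3-specific Csf2rb2. Csf3r forms the G-CSF receptor of the neutrophil lineage, and Il6ra binds interleukin-6 and then recruits Il6st (gp130), which many other cytokines share.

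Csf2rb (chr15:78325752-78353847, plus strand) and Csf2rb2 (chr15:78282507-78305721, minus strand) lie side by side in GRCm38 and are near copies. Of 2631 aligned coding bases, 2505 (95.2%) were identical. The longest stretch they share without a difference is 242 coding bases, bases 2083 to 2324 of both coding sequences, inside an exon at chr15:78348577-78348818 in Csf2rb and chr15:78284630-78284871 in Csf2rb2. It is shown, without capitals, because the authors counted uniquely aligned reads, and a read inside it could come from either gene:
Csf2rb and Csf2rb2: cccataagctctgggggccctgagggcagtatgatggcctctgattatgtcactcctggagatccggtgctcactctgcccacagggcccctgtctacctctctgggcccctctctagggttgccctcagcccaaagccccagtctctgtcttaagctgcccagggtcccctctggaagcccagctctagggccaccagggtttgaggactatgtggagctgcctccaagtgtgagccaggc
MicroRNA genes, Mir7676-2 and Mir7676-1, are annotated within this stretch in Csf2rb and Csf2rb2. Of all different 50-base windows in their transcripts, 12.3% of those of Csf2rb and 18.9% of those of Csf2rb2 also occurred in another gene, falling to 4.63% and 6.82% at 100 bases. Csf3r (chr4:126024550-126044440, plus strand) shared 10.7% of its 50-base windows but 0.376% at 100 bases, mostly with an unnamed locus. Csf2ra (chr19:61223957-61228429, minus strand) and Il6st (chr13:112464070-112510086, plus strand) overlapped no annotated gene, whereas Il3ra (chr14:14346275-14356011, plus strand) and Il6ra (chr3:89864059-89913196, minus strand) overlapped antisense genes by 46 and 242 exonic bases.

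RefSeq promoter sequence of GRCm38.p6 was searched for 6 of the 8 genes, cut here to the bases before the gene's first annotated base. No promoter was held for Csf2rb, and that of Csf1r was left out of the search. Those of Csf2ra, Csf3r and Il6ra are shown because their transcripts varied together between mice, and that of Csf2rb2 because it held the most motif matches. Capitals mark matches to 3 sequences searched on both strands, a PU.1-type GAGGAA, a STAT-type TTCNNNGAA and a C/EBP-type TTGCNNAA, where N is any base:
Csf2ra, chr19:61228430-61228668, minus strand: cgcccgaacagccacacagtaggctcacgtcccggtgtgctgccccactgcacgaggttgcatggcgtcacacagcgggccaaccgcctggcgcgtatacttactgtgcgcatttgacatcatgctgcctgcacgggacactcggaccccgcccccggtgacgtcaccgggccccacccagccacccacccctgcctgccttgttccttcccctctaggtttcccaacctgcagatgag
Csf3r, chr4:126024409-126024549, plus strand: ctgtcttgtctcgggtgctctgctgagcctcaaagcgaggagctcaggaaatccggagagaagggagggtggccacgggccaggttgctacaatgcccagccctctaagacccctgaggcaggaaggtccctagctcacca
Il6ra, chr3:89913197-89913446, minus strand: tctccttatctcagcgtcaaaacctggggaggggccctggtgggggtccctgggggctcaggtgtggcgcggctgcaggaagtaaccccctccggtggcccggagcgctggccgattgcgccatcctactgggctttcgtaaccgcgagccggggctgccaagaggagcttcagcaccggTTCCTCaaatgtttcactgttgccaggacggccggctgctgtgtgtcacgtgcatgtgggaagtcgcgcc
Csf2rb2, chr15:78305722-78305971, minus strand: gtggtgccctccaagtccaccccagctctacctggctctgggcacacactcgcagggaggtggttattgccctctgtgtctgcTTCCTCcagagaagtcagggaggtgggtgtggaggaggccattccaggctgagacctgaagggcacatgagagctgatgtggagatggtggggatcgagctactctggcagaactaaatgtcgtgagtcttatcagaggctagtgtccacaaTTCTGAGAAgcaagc
The Csf2rb2 promoter held a PU.1-type match on the reverse strand at position -167 and a STAT-type match at position -15, counted back from -1 at the base before the gene. The Il6ra promoter held a PU.1-type match on the reverse strand at -70. The stretches of Csf2ra and Csf3r held none of the 3 in 239 and 141 bases, nor did that of Il6st in 250. For Il3ra the stretch was 30 bases long, too short to set beside the shares that follow. Those shares are for 250 bases, so the shorter stretches of Csf3r and Csf2ra had less room for a match. Of 32851 mouse promoter stretches of 250 bases, 23.3% held the PU.1-type sequence, 7.02% the STAT-type and 9.56% the C/EBP-type. No factor's binding was measured, and a match describes letters only.

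In vehicle-treated marrow the receptors differed widely in level per kilobase of exon. Csf3r stood highest at 136 ± 24.6 CPM per kilobase (SD, n = 5), followed by Csf2ra at 77.3 ± 12.7, Csf1r at 36.4 ± 2.49 and Csf2rb at 24.03 ± 1.53. Il6st at 21.4 ± 1.68, Il6ra at 12.9 ± 1.69, Csf2rb2 at 9.83 ± 0.614 and Il3ra at 6.81 ± 0.482 CPM per kilobase completed the order. All 7 neighbouring pairs held this order in 5 of 5 mice. Per kilobase, the GM-CSF-binding chain therefore exceeded the beta chain it pairs with, and the interleukin-3-binding chain fell below both beta chains. The size of that excess depends on the exon length used. Without division by length, Csf2ra stood at 222 CPM, Csf2rb at 175 CPM and both beta chains summed at 221 CPM. The beta chains share stretches in which reads do not align uniquely, so their values may be low. After oxaliplatin Csf2rb2 stood above Il6ra, at 14.1 ± 4.16 against 11.7 ± 4.94 CPM per kilobase, in 4 of 5 mice. The neighbours Csf2ra and Csf1r, at 69.1 ± 23.5 and 55.2 ± 14.4 CPM per kilobase, kept their order in 4 of 5 mice after the drug, and Il6ra and Il3ra in 3 of 5.

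A gene was called where edgeR gave an adjusted p under 0.05 and the fold change was over 1.5. All 8 receptors passed the filter on low counts in marrow, and 1 was called higher and 0 lower, against 11.6% and 11.8% of the 22363 genes tested, or 23.3% either way. By adjusted p alone, 3 receptors were higher and 0 lower, against 33.1% of all genes either way. The groups failed to overlap for 0 of the 8, against 24.9% of genes, and the fold change was positive for 5 of 8, against 47.1%. The median log2 fold change was 0.21 over the 8 receptors and -0.038 over all tested genes. In bulk marrow, fewer cells of a type and less RNA per cell cannot be told apart.

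Csf1r, on chromosome 18, measured 191, 206, 222, 227 and 206 CPM in vehicle mice 1 to 5 and 410, 329, 187, 360 and 308 CPM in oxaliplatin mice 1 to 5. Oxaliplatin mouse 3 lay below every vehicle mouse and the other 4 treated mice lay above all of them. The means were 210 ± 14.4 and 319 ± 83.2 CPM and the log2 fold change was 0.60 ± 0.166 (SE; edgeR adjusted p = 0.0136), just past the 1.5-fold threshold. Without vehicle mouse 1, oxaliplatin mouse 1 or oxaliplatin mouse 4 the log2 fold change was 0.57, 0.49 or 0.55, under that threshold with adjusted p values of 0.0397, 0.0336 and 0.0344. It was also under that threshold with a covariate of Y-linked genes (0.55, edgeR adjusted p = 0.0521) and with a replicate block (0.56, edgeR adjusted p = 0.0327). Csf1r shares 873 exonic bases at its 3′ end with Hmgxb3 on the opposite strand, and whether counting used the strand is not stated. Hmgxb3 stood at 48.4 ± 2.51 and 46.2 ± 1.99 CPM, with a log2 fold change of -0.065 ± 0.0752 (adjusted p = 0.554); its sign turned under scaling by library size alone, to 0.082.

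Csf3r gave 448, 450, 540, 400 and 623 CPM in the vehicle mice and 465, 336, 126, 313 and 584 CPM in the oxaliplatin mice. Treated mice 2, 3 and 4 were below every vehicle mouse, while mice 1 and 5 were inside the vehicle range. The log2 fold change was -0.43 ± 0.314, with a 95% interval of -1.12 to 0.26 (edgeR adjusted p = 0.329), so the interval left room for a fall beyond 1.5-fold. It was -0.21 without oxaliplatin mouse 3, -0.64 (adjusted p = 0.0989) without oxaliplatin mouse 5 and -0.93 (adjusted p = 0.0533) with a covariate of Y-linked genes. Oxaliplatin mouse 5 had the lowest Y-linked sum in marrow (99.1 CPM), so the fit with that covariate is not independent of the fit without this mouse. The highest treated mouse had 4.65 times the Csf3r of the lowest, against 1.56 times between vehicle mice.

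Csf2ra stood at 215, 201, 233, 182 and 278 CPM in the vehicle mice and 224, 206, 99.7, 178 and 284 CPM in the treated mice. The groups overlapped except for mouse 3 at the bottom, mouse 4 just under the vehicle range and mouse 5 just over it. Its log2 fold change was -0.16 ± 0.221 (edgeR adjusted p = 0.624), and ranged from -0.29 without oxaliplatin mouse 5 to 0.0089 without oxaliplatin mouse 3. With the covariate of Y-linked genes it was -0.53 (adjusted p = 0.0977).

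Il6ra read 96.9, 104, 116, 104 and 134 CPM in the vehicle mice and 131, 96.5, 44.0, 80.7 and 153 CPM in the treated mice. Treated values fell on both sides of the vehicle range, 1 above and 3 below. The log2 fold change of -0.14 ± 0.264 (edgeR adjusted p = 0.735) turned to 0.0011 under scaling by library size alone and to 0.054 without oxaliplatin mouse 3. It was -0.30 without oxaliplatin mouse 5 and -0.59 (adjusted p = 0.111) with the covariate of Y-linked genes.

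Il3ra measured 19.4, 21.5, 21.9, 18.6 and 19.6 CPM in the vehicle mice and 32.1, 25.2, 19.3, 29.8 and 26.04 CPM in the treated mice. Every treated mouse but mouse 3 was above the whole vehicle group. The log2 fold change was 0.39 ± 0.129 (edgeR adjusted p = 0.0334), a rise under 1.5-fold. With 1 mouse left out it ranged from 0.31 to 0.49, with edgeR adjusted p up to 0.0823.

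Among the shared chains, Csf2rb stood at 161, 166, 180, 182 and 186 CPM in the vehicle mice and 319, 224, 120, 219 and 264 CPM in the treated mice. Csf2rb2 stood at 43.3, 45.0, 50.8, 45.7 and 48.1 CPM with vehicle and 94.9, 60.7, 42.7, 76.8 and 59.8 CPM with oxaliplatin. For both chains 4 treated mice exceeded all vehicle mice and mouse 3 lay under them all. Csf2rb2 rose by a log2 fold change of 0.52 ± 0.168 (edgeR adjusted p = 0.0287), short of 1.5-fold, and it passed that threshold without oxaliplatin mouse 3, at 0.65, or mouse 5, at 0.59. With 1 mouse left out it ranged from 0.37 to 0.65, with edgeR adjusted p up to 0.0697. Csf2rb had a log2 fold change of 0.39 ± 0.194 (adjusted p = 0.147), of 0.55 (adjusted p = 0.00123) without oxaliplatin mouse 3 and of 0.24 (adjusted p = 0.338) without oxaliplatin mouse 1. With the reads of both chains summed, a choice made after seeing the data, the log2 fold change was 0.42 ± 0.185 (adjusted p = 0.101).

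Il6st, the gp130 chain, gave 228, 215, 248, 263 and 231 CPM in the vehicle mice and 284, 239, 211, 278 and 202 CPM in the treated mice. The treated values straddled the vehicle range, with 2 mice above and 2 below. Its log2 fold change was 0.036 ± 0.113, with a 95% interval of -0.21 to 0.28 (edgeR adjusted p = 0.843), which excludes a change of 1.5-fold either way.

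**Figure D1:**
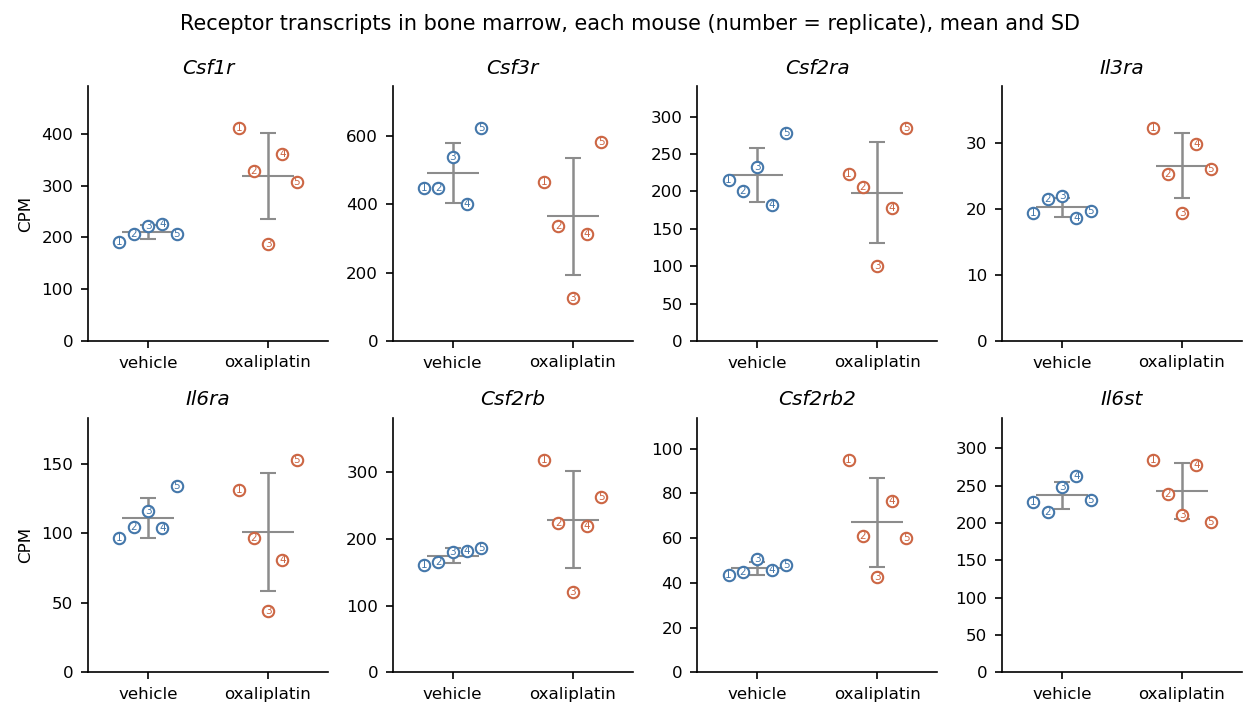
Each panel plots 1 receptor's level in bone marrow in CPM on an axis from 0, with vehicle mice at the left and oxaliplatin mice at the right. Numbered circles are mice, and bars give the mean and SD of 5 mice. Vehicle mice sit close together, while treated mice spread, with mouse 3 the lowest in 7 of the 8 panels and mouse 5 the lowest for Il6st.

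The spread between treated mice exceeded that between vehicle mice for every receptor. The coefficient of variation lay between 6.25% (Csf2rb2) and 18.1% (Csf3r) with vehicle and between 15.5% (Il6st) and 47.2% (Csf3r) with oxaliplatin. Once group means were subtracted, Csf2ra, Csf3r and Il6ra followed each other across the 10 mice, with Pearson's r of 0.961 to 0.986 and, without oxaliplatin mouse 3, of 0.874 to 0.953. Csf1r followed Csf2rb2 (r = 0.93, and 0.889 without that mouse) and Il3ra followed Csf2rb2 (r = 0.937 and 0.844). Between these sets the relation rested on mouse 3: Csf1r and Csf3r had r = 0.754 with it and -0.158 without it. These values describe 10 libraries that share their scaling, and carry no test.

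A search over the 10599 genes whose log2 CPM averaged 3 or more asked which varied most like each receptor over these 10 mice. Csf1r was most like Adgre1 (r = 0.976), which encodes the macrophage antigen F4/80, and Tnfrsf1b (r = 0.973), a TNF receptor. Csf3r was most like Trim30b (r = 0.995) and Sirpb1b (r = 0.993), and Il6ra was most like Vcan (r = 0.995), a matrix proteoglycan, and Myo1g (r = 0.995), a myosin of blood cells. Csf2ra came closest to Phf1 (r = 0.991) and Arap3 (r = 0.989), Csf2rb to Myadm (r = 0.993) and Il4ra (r = 0.988), and Csf2rb2 to Snhg20 (r = 0.982) and Svep1 (r = 0.970). Il3ra came closest to Trio (r = 0.946) and Afdn (r = 0.943), and Il6st to Ly6e (r = 0.948) and CAAA01147332.1 (r = 0.946). Without oxaliplatin mouse 3 the likeness ranged from 0.832 (Trio) to 0.987 (Vcan).

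Marker genes of the cells that carry these receptors are given beside them. Late neutrophil markers, 9 genes of secondary and tertiary granules and mature cells such as Ltf, Ngp and Mmp9, summed to 18420 to 22520 CPM in the vehicle mice and 22770, 21430, 7224, 9988 and 27620 CPM in oxaliplatin mice 1 to 5. Mice 3 and 4 stood far below the vehicle range and mice 1 and 5 above it. Of the 9 genes, 0 were called in edgeR or DESeq2 and 0 had an unadjusted p under 0.05. Primary granule genes such as Mpo and Elane summed to 2794 to 3292 CPM with vehicle and 2459 to 4148 CPM with oxaliplatin, highest in mouse 3, and of those 5 genes 0 were called in edgeR, 1 in DESeq2 and 2 at an unadjusted p under 0.05. In mouse 3 skeletal muscle markers also reached 586 CPM, against 0.989 to 74.2 CPM with vehicle and 30.3 to 263 CPM in the other treated mice. The part of these cell types in the receptor levels was not tested.

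The macrophage list had 4 of its 10 genes called higher in marrow and 0 lower, with a median log2 fold change of 0.42. Mrc1, the mannose receptor, rose most, from 199 ± 31.7 to 551 ± 236 CPM (log2 fold change 1.47 ± 0.286, edgeR adjusted p = 0.00175). The list summed to 1400 to 1968 CPM with vehicle and 1592 to 3312 CPM with oxaliplatin, with mouse 3 alone inside the vehicle range. Of 8 monocyte markers, 1 was called higher and 3 lower, with a median of -0.27. F13a1, coagulation factor XIII A, rose by 1.18 ± 0.197 (adjusted p = 4.66e-04), and Ms4a4c, a membrane protein, changed by -0.97 ± 0.303 (adjusted p = 0.0266), a call lost without vehicle mouse 2, 4 or 5 or oxaliplatin mouse 4 (adjusted p = 0.0512 to 0.0596). Osteoclasts also need Csf1r, and 4 of 6 osteoclast markers were called higher and 0 lower, led by Dcstamp, a fusion protein of osteoclasts (2.09 ± 0.412, adjusted p = 0.00162). Of 6 dendritic cell markers, 4 were called lower and 0 higher, led by Siglech, a lectin of plasmacytoid dendritic cells, which fell from 31.4 ± 3.32 to 4.44 ± 0.819 CPM (-2.82 ± 0.144, adjusted p = 5.58e-08).

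**Figure D2:**
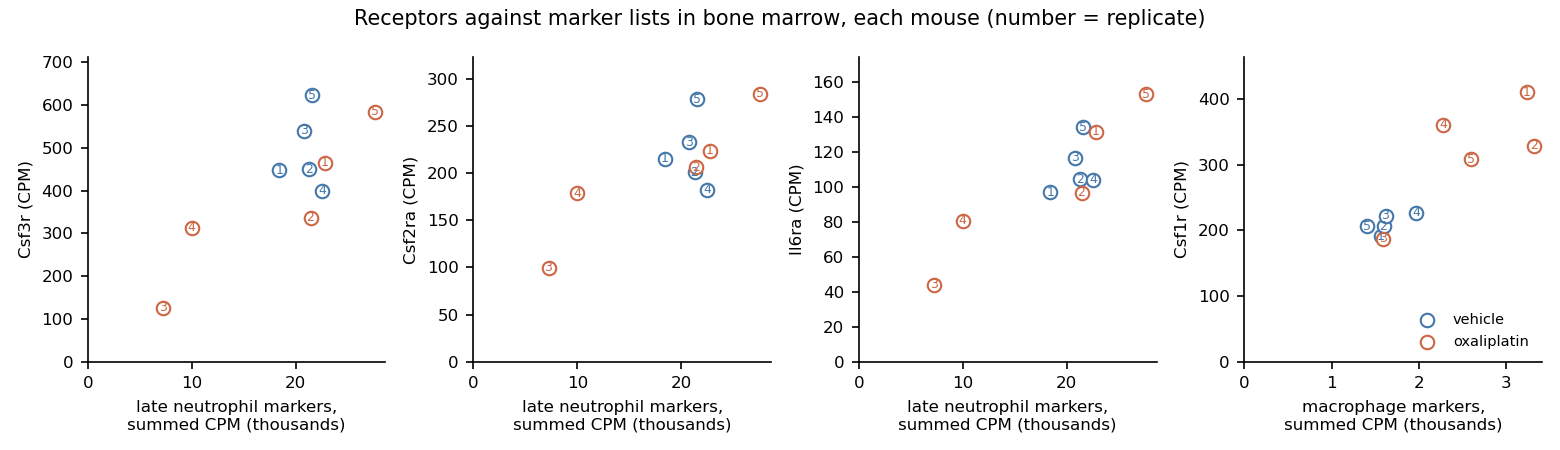
Each circle is 1 mouse, numbered by replicate, with summed marker CPM on the horizontal axis and receptor CPM on the vertical axis, both from 0. Csf3r, Csf2ra and Il6ra are plotted against late neutrophil markers, where treated mice 3 and 4 sit apart at the left with mouse 3 lowest, and Csf1r against macrophage markers, where treated mice 1, 2, 4 and 5 sit above the vehicle mice.

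Receptors were also compared with the lists within each library, as log2 CPM of the receptor minus the mean log2 CPM of the list, over 7 such contrasts. The lists and contrasts were chosen with earlier results of these data known. Csf1r exceeded the monocyte list by 1.504 ± 0.105 with vehicle and 2.40 ± 0.236 with oxaliplatin, a difference of 0.89, higher in 5 of 5 treated mice than in any vehicle mouse (exact two-sided permutation p = 0.00794, the smallest possible with 5 against 5, adjusted p = 0.0185). Against the macrophage list Csf1r differed by 3.0e-04 (exact permutation p = 1.0). With the list's median in place of its mean, that value turned to -0.59 (exact permutation p = 0.00794, adjusted p = 0.0185).

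Csf3r did not separate from the late neutrophil list, with a difference of -0.20 (exact permutation p = 0.349, adjusted p = 0.489). Against primary granule genes it differed by -0.73 (exact permutation p = 0.167, adjusted p = 0.292), by -0.99 (adjusted p = 0.0417) without oxaliplatin mouse 5 and by -0.26 (adjusted p = 0.478) without oxaliplatin mouse 3. Csf2rb gained 0.71 on the late neutrophil list and Il3ra gained 1.46 on mast cell and basophil markers. Each was higher in 5 of 5 treated mice than in any vehicle mouse (exact permutation p = 0.00794, adjusted p = 0.0185). For Csf2rb the margin was narrow, with a vehicle maximum of -2.866 and a treated minimum of -2.849. The gain of Il3ra was 0.67 (exact permutation p = 0.0714, adjusted p = 0.125) with the list's median, and 3 of the 5 mast cell and basophil markers, led by Prss34, a basophil protease that fell by 2.11 ± 0.409 on the log2 scale (edgeR adjusted p = 0.0021), were called lower. Csf2ra differed by 0.11 against the monocyte list (exact permutation p = 0.508, adjusted p = 0.593). Leaving out any 1 vehicle mouse raised the adjusted p of the Csf1r gain to 0.0556, though its exact permutation p stayed at 0.00794. The adjusted p of the Csf2rb gain rose to between 0.0926 and 0.13 and that of the Il3ra gain to 0.0833. The differences lay between 0.86 and 0.93 for Csf1r, 0.69 and 0.73 for Csf2rb, and 1.41 and 1.53 for Il3ra.

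Ratios between receptors, 5 in all and chosen with earlier results of these data known, asked whether their levels shifted against each other. Csf1r and Csf3r are separate receptors, set together as a lineage pair, while the other ratios took chains that form or compete in a complex. Csf2ra fell against Csf2rb by 0.55 on the log2 scale, from 0.33 ± 0.211 to -0.22 ± 0.229, lower in 4 of 5 treated mice than in any vehicle mouse (exact permutation p = 0.0159, adjusted p = 0.0397). Csf1r gained 1.14 on Csf3r, from -1.21 ± 0.279 to -0.072 ± 0.555, higher in 4 of 5 treated mice than in any vehicle mouse (exact permutation p = 0.0159, adjusted p = 0.0397). Both calls were lost without any 1 mouse other than vehicle mouse 4 or oxaliplatin mouse 5 (adjusted p = 0.0595). Il3ra against Csf2rb, Il3ra against Csf2rb2 and Il6ra against Il6st differed by 0.049, -0.10 and -0.28 (exact permutation p = 0.762, 0.286 and 0.429). With 1 mouse left out these ranged from -0.058 to 0.12, from -0.14 to -0.041 and from -0.52 to -0.054, and the sign of the Il3ra to Csf2rb ratio turned without oxaliplatin mouse 3.

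Among 13 ligands of these receptors and of gp130 partners, 7 were tested in marrow, 4 were called higher and 1 lower. Il6, the ligand of Il6ra, went from 0.475 ± 0.173 to 1.53 ± 0.902 CPM (log2 fold change 1.68 ± 0.421, edgeR adjusted p = 0.00774). Lif, a gp130 ligand, went from 0.628 ± 0.271 to 1.91 ± 0.694 CPM (1.60 ± 0.36, adjusted p = 0.00389). Both remained scarce in every mouse, at no more than 2.97 CPM. Clcf1, another gp130 ligand, fell by 0.78 ± 0.226 on the log2 scale (adjusted p = 0.0177), a call lost without vehicle mouse 5 (-0.66, adjusted p = 0.0531) or with library size alone (-0.64, adjusted p = 0.0534).

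The ligands of the remaining receptors, named here after their values were seen, were Csf1, Il34, Csf2, Csf3 and Il3. Csf1 rose from 49.7 ± 4.32 to 75.6 ± 23.04 CPM (log2 fold change 0.60 ± 0.178, edgeR adjusted p = 0.0191), just past 1.5-fold. The groups overlapped, at 45.9 to 55.4 CPM with vehicle and 46.8 to 106 CPM with oxaliplatin. Il34, the other Csf1r ligand, had a log2 fold change of 0.28 ± 0.122 (adjusted p = 0.0941). Csf2, Csf3 and Il3 averaged at most 0.146 CPM in either marrow group and were not tested. At that depth, 3 counts corresponded to 0.0668 to 0.0975 CPM.

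Of 6 partner receptors, 3 were called higher and 1 lower in marrow. Il5ra, the interleukin-5-binding chain that pairs with Csf2rb, fell from 7.83 ± 1.35 to 2.5 ± 1.1 CPM (-1.65 ± 0.295, edgeR adjusted p = 7.92e-04). All 4 eosinophil markers were called lower beside it, and summed to 1589 to 1885 CPM with vehicle and 337 to 811 CPM with oxaliplatin; the part of eosinophils in the fall was not tested. Lifr rose by 0.91 ± 0.163 (adjusted p = 8.40e-04), Osmr by 0.99 ± 0.155 (adjusted p = 2.94e-04) and Cntfr by 1.49 ± 0.363 (adjusted p = 0.00651), all partners of gp130. These gp130 partners are found on stromal cells, and 2 of 7 stromal, endothelial and adipocyte genes were called higher, led by Adipoq, the adipocyte hormone adiponectin, from 24.5 ± 8.52 to 182 ± 74.7 CPM (2.89 ± 0.356, adjusted p = 8.61e-05); the part of these cells was not tested.

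Of 15 kinases, adaptors and STATs, 1 was called, Gab2, an adaptor downstream of cytokine receptors, which rose by 0.63 ± 0.0955 (edgeR adjusted p = 2.12e-04). The median over the 15 was -0.17. Among 10 feedback inhibitors, 5 were called higher and 0 lower, with a median of 0.51. Cish rose most, from 4.81 ± 1.03 to 27.7 ± 2.3 CPM (2.53 ± 0.152, adjusted p = 1.71e-07), followed by Socs2, from 5.62 ± 1.52 to 26.5 ± 2.12 CPM (2.24 ± 0.173, adjusted p = 1.09e-06). Both are suppressors induced by STAT5, and every treated mouse exceeded every vehicle mouse for each. Which receptor or cell type lay behind these rises was not tested. The other 3 were Socs3, Ptpn11 and Dok2.

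Of 9 STAT target genes, 1 was called higher and 1 lower. The higher one was Osm, the gp130 ligand oncostatin M, which is also on the ligand list, at 0.71 ± 0.17 (edgeR adjusted p = 0.00561). The lower one was Bcl2l1, the survival factor BCL-xL, which is abundant in erythroid cells and fell from 282 ± 31.2 to 127 ± 11.1 CPM (-1.155 ± 0.102, adjusted p = 3.17e-06). Erythroid markers, all 6 called lower, summed to 22690 to 40150 CPM with vehicle and 2768 to 7336 CPM with oxaliplatin; their part in this was not tested. Of 8 other growth factor receptors, Epor (-1.24 ± 0.141, adjusted p = 2.25e-05), the erythropoietin receptor, and Il7r (-1.62 ± 0.178, adjusted p = 1.71e-05), the lymphoid interleukin-7 receptor, fell. B cell markers, 6 of 6 lower, went with Il7r, and their part was not tested.

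**Figure D3:**
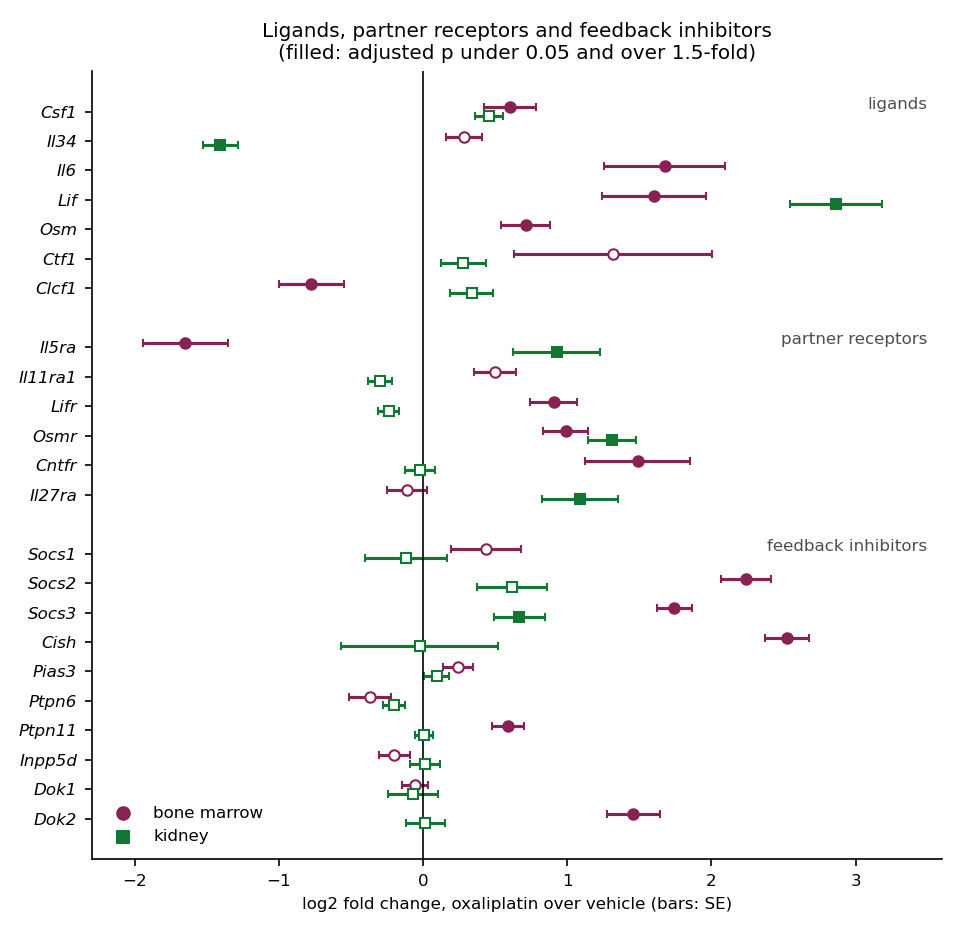
Points give the log2 fold change of oxaliplatin over vehicle for tested ligands, partner receptors and feedback inhibitors, with bars of 1 SE, circles for bone marrow and squares for kidney; filled points passed an adjusted p under 0.05 and 1.5-fold. The feedback inhibitors Cish and Socs2 lie farthest to the right in marrow, and Lif lies farthest to the right in kidney.

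In kidney, 5 of the 8 receptors were called in edgeR, 4 higher and 1 lower, against 11.5% of the 19293 genes tested, 7.68% higher and 3.81% lower. By adjusted p alone 6 of 8 passed, against 29.4%, and the fold change was positive for 5 of 8, against 52.8%. The groups did not overlap for 4 of 8, against 20.7%. The median log2 fold change was 0.53 over the receptors and 0.025 over all tested genes. Except for Csf1r, Il6st and Csf2ra, the receptors were scarce there, with vehicle means up to 5.19 CPM. Of the 5 calls, those of Csf3r and Il6ra were near the 1.5-fold threshold and were lost under several settings.

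Csf1r measured 83.6, 70.4, 77.8, 77.5 and 93.6 CPM in vehicle kidneys 1 to 5 and 32.6, 51.6, 48.2, 46.1 and 39.3 CPM in oxaliplatin kidneys 1 to 5. The labels do not say whether a kidney and a marrow of the same number came from 1 mouse. All 5 treated kidneys lay below all 5 vehicle kidneys. The log2 fold change was -0.89 ± 0.111 (edgeR adjusted p = 5.0e-05), and between -0.96 and -0.79 with any 1 kidney left out. Hmgxb3 changed by -0.23 ± 0.0621 (adjusted p = 0.00989).

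Il6st, the most abundant of the 8 in kidney per kilobase, gave 292, 289, 300, 274 and 318 CPM with vehicle and 220, 239, 222, 263 and 218 CPM with oxaliplatin. These groups did not overlap either. The fall of 0.34 ± 0.0701 on the log2 scale (edgeR adjusted p = 0.00154) was under 1.5-fold. Csf2ra, at 9.59 to 13.7 CPM with vehicle and 10.1 to 13.4 CPM with oxaliplatin, had a log2 fold change of -0.046 ± 0.113 (adjusted p = 0.794), a sign that turned under library size alone (0.084).

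Csf2rb read 1.75, 1.56, 2.03, 2.17 and 2.11 CPM in vehicle kidneys and 3.3, 3.23, 2.52, 3.54 and 3.81 CPM in treated kidneys, from 41 to 54 and from 70 to 127 reads. Every treated kidney was above every vehicle kidney. The log2 fold change was 0.77 ± 0.176 (edgeR adjusted p = 0.00336). Csf2rb2, at 14 to 41 reads with vehicle and 46 to 71 with oxaliplatin, rose by 0.92 ± 0.271 (adjusted p = 0.0159), with 4 of 5 treated kidneys above all vehicle kidneys. Summed, the pair went from 2.96 to 5.26 CPM (0.83 ± 0.155, adjusted p = 7.65e-04).

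Csf3r measured 1.27, 1.56, 1.3, 1.89 and 1.26 CPM in vehicle kidneys and 2.3, 2.66, 2.01, 2.07 and 2.16 CPM in treated kidneys. The groups did not overlap, at 30 to 47 and 56 to 79 reads. Its rise of 0.62 ± 0.196 (edgeR adjusted p = 0.0239) lost its call without vehicle kidney 1, 3 or 5 or treated kidney 2 (adjusted p = 0.0565 to 0.0614). Late neutrophil markers summed to 0.953 to 1.45 CPM in vehicle kidneys and 1.65 to 4.39 CPM in treated kidneys, and primary granule genes to at most 0.395 CPM; their part in the rise was not tested.

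Il6ra went from 5.19 ± 1.154 to 7.81 ± 2.37 CPM (0.59 ± 0.201, edgeR adjusted p = 0.0373), with 3 of 5 treated kidneys above all vehicle kidneys. That call was lost without vehicle kidney 1, 3 or 4 or treated kidney 4 or 5, with log2 fold changes of 0.44 to 0.59 and adjusted p values of 0.0681 to 0.0959. It also fell under 1.5-fold in DESeq2 (0.58) and in edgeR with median ratio scaling (0.58), the covariate of Y-linked genes (0.56) or the replicate block (0.57). Il3ra went from 2.77 ± 0.994 to 3.85 ± 0.765 CPM (0.48 ± 0.221, adjusted p = 0.116), and was called without vehicle kidney 5 (0.69, adjusted p = 0.023).

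**Figure D4:**
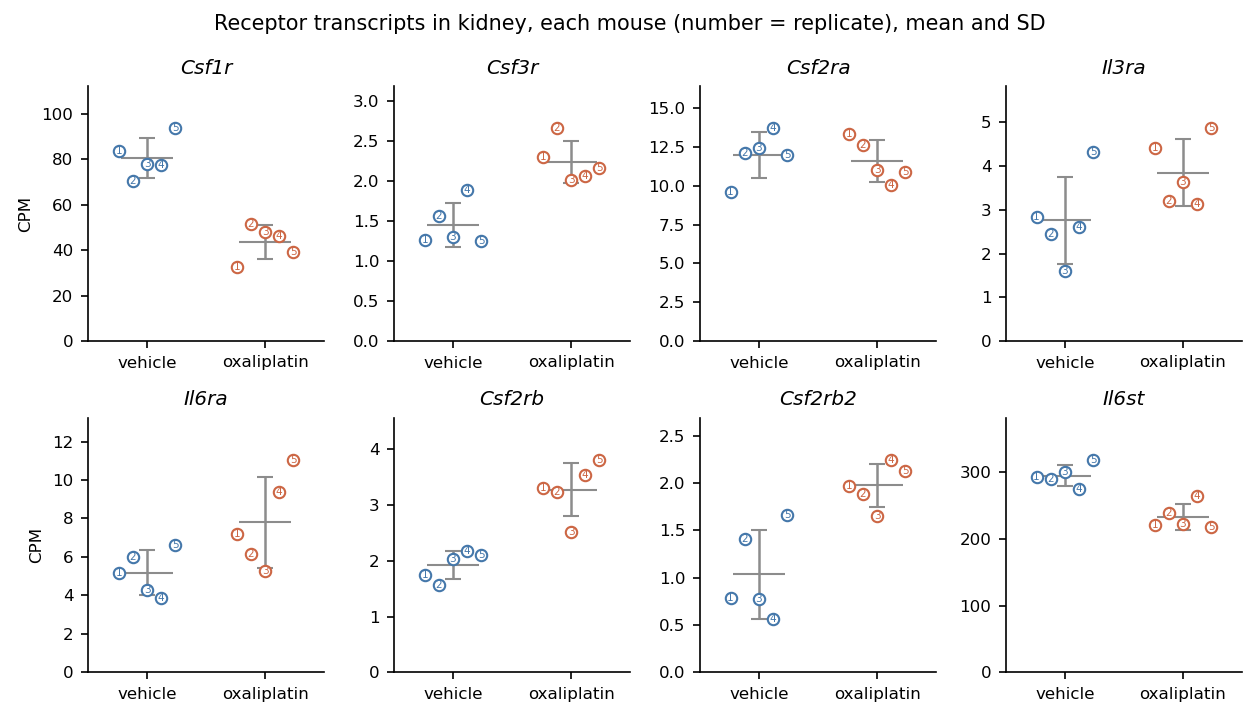
Each panel plots 1 receptor's level in kidney in CPM on an axis from 0, with vehicle mice at the left, oxaliplatin mice at the right, numbered circles for single mice, and bars for the mean and SD of 5. The treated kidneys lie wholly below the vehicle kidneys for Csf1r and Il6st and wholly above them for Csf2rb and Csf3r.

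Of the 9 macrophage markers tested in kidney, 4 were called lower and 1 higher. Adgre1, the gene most like Csf1r in marrow, fell from 3.42 ± 0.886 to 1.63 ± 0.197 CPM (-1.07 ± 0.199, edgeR adjusted p = 7.28e-04), and the other 3 were the complement genes C1qa, C1qb and C1qc. Mrc1 rose by 0.83 ± 0.216 (adjusted p = 0.00813). The whole list summed to 160 to 174 CPM with vehicle and 136 to 168 CPM with oxaliplatin, so the groups overlapped, and its part in the fall of Csf1r was not tested. Of the 7 monocyte markers tested in kidney, 1 was called higher and 1 lower, with a median of 0.25. F13a1 rose from 0.176 ± 0.133 to 2.0 ± 0.868 CPM (3.48 ± 0.45, edgeR adjusted p = 3.69e-05). Ms4a6c changed by -0.98 on the log2 scale, a call kept in only 1 of 10 fits with 1 kidney left out.

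Il34, made by the kidney tubule and the second ligand of Csf1r, fell from 23.5 ± 4.38 to 8.87 ± 0.81 CPM in kidney (-1.41 ± 0.121, edgeR adjusted p = 5.79e-07). Csf1 went the other way, by 0.46 ± 0.0993 (adjusted p = 0.00237), a rise under 1.5-fold. Lif rose from 0.339 ± 0.109 to 2.51 ± 0.984 CPM (2.87 ± 0.319, adjusted p = 9.21e-06). These were the only calls, 1 higher and 1 lower, among the 5 ligands tested in kidney.

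Of the 6 partner receptors in kidney, 3 were called higher and 0 lower. Osmr rose by 1.31 ± 0.167 (edgeR adjusted p = 3.80e-05) and Il27ra by 1.09 ± 0.264 (adjusted p = 0.00495). Of the 7 stromal, endothelial and adipocyte genes, 6 were called higher in kidney and 0 lower, led by Adipoq (2.61 ± 0.614, adjusted p = 0.00971), and they summed to 297 to 333 CPM with vehicle and 407 to 496 CPM with oxaliplatin, without overlap; their part was not tested. Il5ra rose by 0.93 ± 0.3 (adjusted p = 0.0295), a call lost without vehicle kidney 3, 4 or 5 or treated kidney 1 or 5 (adjusted p = 0.0658 to 0.0787). Socs3 was the only feedback inhibitor called, at 0.67 ± 0.176 (adjusted p = 0.00857), and 0.58 without treated kidney 3, under 1.5-fold. Of the 15 kinases, adaptors and STATs, 0 were called in edgeR or DESeq2, although 2 had an adjusted p under 0.05 and 3 an unadjusted p under 0.05. Cebpd (1.61 ± 0.285, adjusted p = 0.00275) and Junb (0.85 ± 0.267, adjusted p = 0.042) were the STAT targets called higher, Junb not without vehicle kidney 2, 3, 4 or 5 or treated kidney 1 or 5 (adjusted p = 0.0691 to 0.0932). Il1r1, the interleukin-1 receptor, was the only one of the 6 other growth factor receptors tested in kidney that was called (0.84 ± 0.175, adjusted p = 0.00187).

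**Figure D5:**
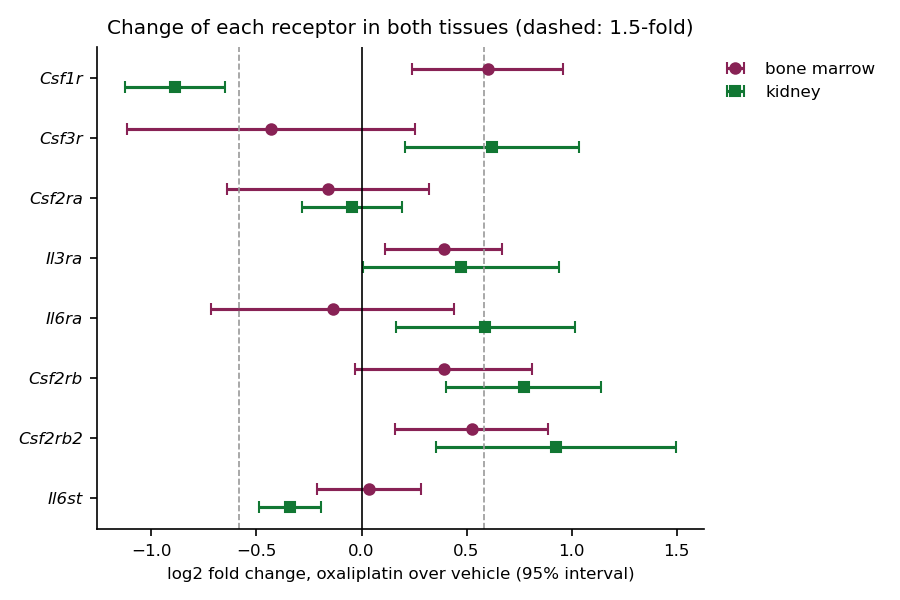
Points give each receptor's log2 fold change of oxaliplatin over vehicle with its 95% interval, circles for bone marrow and squares for kidney, and dashed lines mark 1.5-fold. Csf1r lies on opposite sides of 0 in the tissues, at 0.60 and -0.89, and its intervals do not overlap.

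A test of whether the change differed between tissues, the interaction term in edgeR, passed an adjusted p of 0.05 for 2 of the 8 receptors, both positive, against 30.1% of 24321 genes, 17% positive and 13.1% negative. For Csf1r the marrow change exceeded the kidney change by 1.54 ± 0.205 on the log2 scale (adjusted p = 6.12e-06). It was called higher in marrow and lower in kidney, as were 0.628% of the 17507 genes tested in both tissues, and the marrow call was lost without any of 3 mice. No receptor was called higher in both tissues, against 2.39% of those genes. For Il6st the difference was 0.44 ± 0.133 (adjusted p = 0.0162). Csf3r differed by -1.02 ± 0.402 (adjusted p = 0.0614), and passed the threshold without oxaliplatin marrow 3 (-0.81, adjusted p = 0.0213) or 5 (-1.20, adjusted p = 0.0145) and in DESeq2 (-1.002, adjusted p = 0.0275). The fit treated marrow and kidney libraries of the same number as separate. The 95% intervals for Csf2rb (-0.85 to 0.17), Csf2rb2 (-0.96 to 0.26), Csf2ra (-0.59 to 0.44), Il3ra (-0.56 to 0.50) and Il6ra (-1.41 to 0.033) all held 0 in this fit.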

How the data were processed

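The authors aligned reads to the Ensembl mouse genome with STAR, and the deposited values are raw counts per gene of uniquely aligned, unambiguous reads, not normalized. The methods derive them in Partek Flow, while the submitters' processing notes name featureCounts and Salmon, and the sources also differ on the STAR version and on library preparation (SMARTer cDNA, or ribosomal RNA removal with random hexamers). Each table held 55774 lines. Repeats of a line (287) and a line lacking a value (1) were dropped.

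Samples were grouped by their labels. Each tissue was fitted alone: filterByExpr at a minimum count of 10, TMM scaling, then the two-sided quasi-likelihood F test (robust) of edgeR 4.0.16 under R 4.3.3 with limma 3.58.1, on treatment alone. Benjamini-Hochberg adjustment ran over all tested genes. The interaction was fitted over 20 libraries. The labels name the libraries biological replicates but no mouse. Receptor ratios and contrasts with marker lists used log2 CPM (prior count 2) and an exact two-sided permutation test over all 252 splits of 10 mice, adjusted over 5 ratios and 7 contrasts. The study's own test, DESeq2 (version 1.42.0), was an alternative here, with other scalings, filters, thresholds, a covariate of Y-linked genes, a replicate block and each mouse left out. The members, gene lists and contrasts were chosen with earlier results of these data known. The text names all 8 receptors; every called gene of a pathway list with at most 4 calls in a tissue and otherwise its 2 largest changes each way; the largest called change each way in the marker lists it describes; and, for likeness, the 2 genes with the highest r. Other names were chosen after their values were seen. A result of the list of other growth factor receptors in marrow that this rule would name is not reported here. In kidney 3 counts corresponded to 0.09 to 0.13 CPM; such floors cover counting error only. Same-numbered mice of the treatment groups did not deviate together (r = -0.154 to 0.228), so numbers were not treated as pairs. Positions, exon lengths and overlaps are from the GENCODE annotation of GRCm38. Fitting steps were tested on simulated data. Python 3.11.15 and matplotlib 3.10.9 drew the figures.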

Additional observations from a re-analysis of the deposited data

Results flagged for a closer look

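The response of Csf1r and Il6st to oxaliplatin differed between tissues by the test of the interaction in edgeR. These were 2 of the 8 receptors, against 30.1% of all genes tested. The change of Csf1r in bone marrow exceeded that in kidney by 1.54 on the log2 scale (0.60 in marrow and -0.89 in kidney, adjusted p = 6.12e-06). In marrow 4 of 5 treated mice were above every vehicle mouse and mouse 3 was below every vehicle mouse. In kidney 5 of 5 treated values were below every vehicle value. The change of Il6st exceeded that in kidney by 0.44 (0.036 in marrow and -0.34 in kidney, adjusted p = 0.0162). None of the 32 groups of 5 values, 8 receptors in 4 groups each, held a mouse far enough from the others to stand out, although chance alone flags about 1 in 20 groups.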

How the results depend on the processing

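The number of receptors called in bone marrow, 1 in edgeR, was 2 with library size alone, 3 with no fold change threshold, and 0 with a test against 1.5-fold, the covariate of Y-linked genes or the replicate block; with 1 mouse left out it ranged from 0 to 2. In kidney the 5 calls became 4 with DESeq2 and 0 with the test against 1.5-fold, and ranged from 3 to 5 with 1 mouse left out. For the interaction the block took same-numbered marrow and kidney of a treatment as 1 mouse, which the labels do not state. With it 4 receptors were called, against 2, adding Csf3r (-1.11, adjusted p = 0.0227) and Il6ra (-0.75, adjusted p = 0.0158). With DESeq2 the interaction called 3, adding Csf3r. Over all genes, the test against 1.5-fold called 2730 in marrow and 454 in kidney, and no fold threshold called 7413 and 5679, against 5221 and 2216. Scaling by library size alone moved the median log2 fold change from -0.038 to 0.11 in marrow and from 0.025 to 0.16 in kidney, and the share of calls that were higher from 49.6% to 63.4% and from 66.8% to 82.7%; it turned Il6ra in marrow to 0.0011, Hmgxb3 in marrow to 0.082 and Csf2ra in kidney to 0.084.

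With the replicate block and a sign-flip test, whose smallest p is 0.0625, no ratio or contrast could pass: Csf2ra to Csf2rb (-0.55) and Csf1r to Csf3r (1.14) had adjusted p = 0.156 by this exact permutation, and Csf1r to monocyte (0.89), Csf2rb to late neutrophil (0.71) and Il3ra to mast cell and basophil (1.46) had 0.109. By the list's median Csf1r to macrophage was -0.59 and Il3ra to mast cell and basophil 0.67. With 1 mouse left out, Csf2ra to Csf2rb ranged from -0.63 to -0.48, Csf1r to Csf3r from 0.98 to 1.35, Il3ra to Csf2rb from -0.058 to 0.12, Csf1r to monocyte from 0.82 to 0.98, Csf1r to macrophage from -0.093 to 0.082, Csf2rb to late neutrophil from 0.55 to 0.86, Il3ra to mast cell and basophil from 1.29 to 1.67 and Csf3r to primary granule genes from -0.99 to -0.26. In the same settings the log2 fold changes in marrow ranged for Csf2ra from -0.29 to 0.0089, for Il6ra from -0.30 to 0.054, for Il6st from -0.025 to 0.13 and for Hmgxb3 from -0.085 to 2.0e-04. In kidney Csf2ra ranged from -0.11 to 0.010, and the interaction ranged from -0.19 to 0.080 for Csf2ra and from -0.25 to 0.11 for Il3ra. The causes of these shifts were not tested.

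With 5 mice per group, a wide spread in treated marrow and few reads for Csf2rb, Csf2rb2 and Csf3r in kidney limited precision. DESeq2 called 4 of 9 STAT target genes in marrow and 2 of 10 feedback inhibitors in kidney, against 2 and 1 in edgeR. Y-linked genes were present in every library, so their covariate is no sex term.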
